A study of Drosophila melanogaster with 4 samples.

Results

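The digestive lysozymes of the fruit fly (*Drosophila melanogaster*) were described across intestines of a kdm5 mutant and of the strain w1118. The genes were LysB, LysD, LysE and LysS, chosen by name, and their transcripts were found in the deposited table by FlyBase transcript identifier. All 4 genes were present, with 5 transcripts of the 1761 listed: 2 of LysB and 1 each of LysD, LysE and LysS. RNA came from dissected intestines of female flies aged 3 to 5 days, with 30 intestines pooled in each sample and 2 samples per genotype. The mutant carried the kdm5 alleles k6801 and 10424 together, and the controls were w1118, a white-eyed laboratory strain. Flies of both genotypes were kept at 25 °C. Kdm5 encodes a demethylase of lysine 4 on histone H3. One label field names the whole animal as the source, while the tissue field and the protocol give the intestine.

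Lysozymes cut the sugar backbone of peptidoglycan, the polymer of the bacterial cell wall. Most animals use them in defence, but flies, which eat fermenting and rotting food, also make them in the gut, where they are thought to digest bacteria taken in with the meal. In Drosophila these genes form a tight family on the left arm of chromosome 3; LysB, LysD and LysE are close to identical in sequence, and LysS is more divergent. Reads from near-identical copies can be assigned to any of them, so the level of LysB, LysD or LysE alone is uncertain and their sum is the firmer measure.

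The values were TPM, which scale each library to a common total and divide by transcript length and so allow levels to be compared between genes. TPM keeps no sequencing depth, so the depth of the libraries is unknown. Every transcript in the deposited table carried a p below 0.05 in the authors' own comparison, so the table is a list selected on the difference between the genotypes. Of it, 58.8% stood higher in the mutant. The 1 listed Kdm5 transcript had 0.0768 and 0.0361 TPM in the mutant samples against 1.43 and 0.639 TPM in w1118. That is the side each label gives. The transcript was low in every library and did not pass limma's test with all annotated transcripts counted (adjusted p = 0.109). The labels give neither separate crosses or days for the 2 samples of a genotype nor a shared background for the 2 strains. P-values therefore measure the spread between these samples, and an effect of kdm5 and one of strain background cannot be told apart. The words rose and fell below refer to transcripts past limma's adjusted p of 0.05, with all 35694 annotated transcripts counted as tests. This is called the annotation-wide p. The listed transcripts had already been selected on the same contrast in the same samples. Limma p-values on them therefore tend to be too small, and a call repeats part of that selection.

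In the mutant intestine all 5 lysozyme transcripts fell. LysD, the most abundant listed transcript of the w1118 gut, fell 3.06-fold, LysB fell 3.77-fold (FBtr0072628) and 3.84-fold (FBtr0336738), LysE 3.6-fold and LysS 8.77-fold, as ratios of group means of 2 libraries. In bulk RNA, fewer cells that make lysozyme and less lysozyme RNA per cell cannot be told apart. Over the listed transcripts alone limma also called all 5 as lower. Of all 1761 listed transcripts, 23.4% were called lower in that way and 8.69% were called lower with the annotation-wide p. The median log2 change of the 5 was -1.91, against 0.86 over all listed transcripts and -0.82 over the 725 listed transcripts that stood lower.

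LysD (FBtr0072634, FBgn0004427) measured 12309 and 8893 TPM in mutant replicates 1 and 2, and 31334 and 33583 TPM in w1118 replicates 1 and 2. Both mutant libraries lay far below both w1118 libraries. The group means were 10601 ± 2416 against 32458 ± 1590 TPM (SD, n = 2, mutant first). The log2 change was -1.63 ± 0.30 (SE), and limma's adjusted p was 0.000227 within the list and 0.0046 annotation-wide. It ranked 1 among listed transcripts in both w1118 libraries, and 2 and 4 in mutant replicates 1 and 2, where the digestive protease Jon65Aiii took the first place.

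LysB had both its annotated transcripts in the list. The shorter (FBtr0072628, FBgn0004425) measured 1975 and 1388 TPM in mutant intestines and 5550 and 7132 TPM in w1118 intestines. The groups did not overlap, and the lower w1118 library stood 2.81 times above the higher mutant library. It changed by -1.93 ± 0.27 on the log2 scale (SE, n = 2 per group; limma adjusted p = 1.44e-05 within the list, 0.000291 annotation-wide). The longer transcript (FBtr0336738) measured 30.4 and 32.9 TPM in mutant intestines and 113 and 129.9 TPM in w1118 intestines, again without overlap. Its log2 change was -1.91 ± 0.26 (limma adjusted p = 9.51e-06, annotation-wide 0.000193). Both transcripts start at the same base and hold the same coding sequence, and the longer one extends 125 bases further at its 3′ end. The longer transcript amounted to 1.54% and 2.37% of the shorter in the mutant libraries and to 2.04% and 1.82% in the w1118 libraries, so the proportion of these transcripts overlapped between genotypes.

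LysE (FBtr0072630, FBgn0004428) measured 35.2 and 38.1 TPM in mutant intestines and 118 and 146 TPM in w1118 intestines. Both mutant libraries lay below both w1118 libraries. It changed by -1.81 ± 0.26 on the log2 scale (SE, n = 2 per group; limma adjusted p = 1.64e-05 within the list, 0.000332 annotation-wide).

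LysS (FBtr0072631, FBgn0004430), the divergent and least abundant member, measured 1.04 and 0.577 TPM in mutant intestines and 5.35 and 8.82 TPM in w1118 intestines. The lower w1118 library stood 5.15 times above the higher mutant library, the widest gap of the 5 transcripts. The group means were 0.808 ± 0.327 against 7.08 ± 2.45 TPM (SD, n = 2, mutant first). The log2 change on log2(TPM + 1) was -2.14 ± 0.37 (limma adjusted p = 0.000107, annotation-wide 0.00216). That scale understates the change of so low a transcript: with a pseudocount of 0.1 the log2 change was -2.99, and with 10 it was -0.65.

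**Figure D1:**
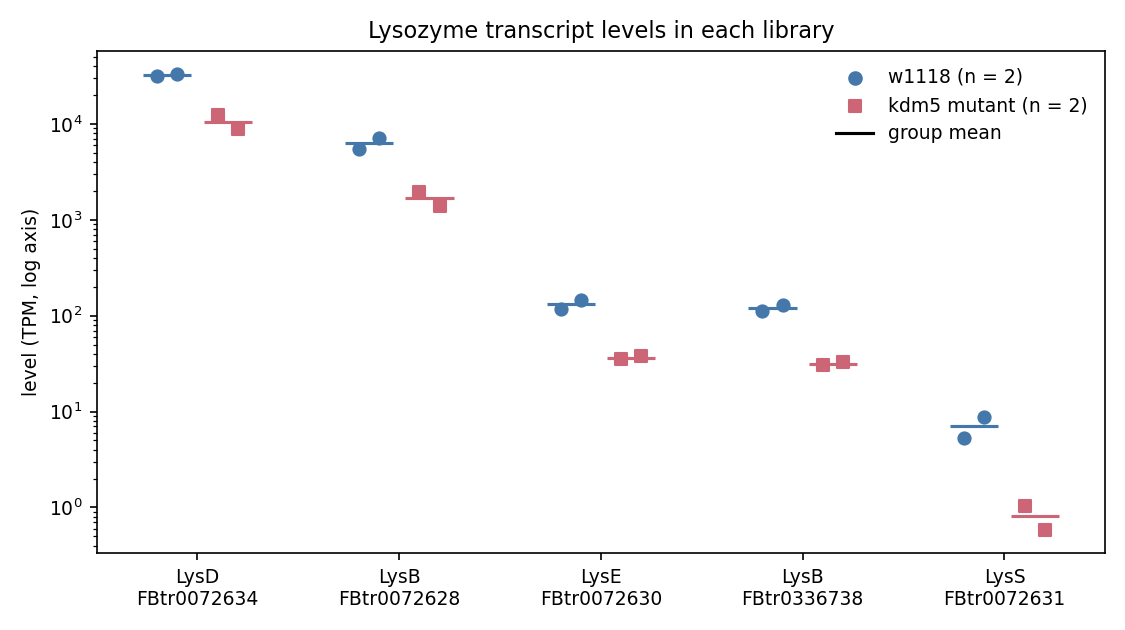
Level of each lysozyme transcript in TPM on a log axis, with 1 point per library and a line at the mean of each genotype (2 libraries each). The transcripts span from 0.577 TPM (LysS, mutant replicate 2) to 33583 TPM (LysD, w1118 replicate 2), and in every one both mutant points lie below both w1118 points.

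The order of levels was the same in all 4 libraries: LysD, then the shorter LysB transcript, LysE, the longer LysB transcript and LysS. LysE and the longer LysB transcript were close neighbours, with LysE slightly the higher in every library. Their w1118 ranges overlapped (118 to 146 and 113 to 129.9 TPM), and their mutant ranges did not (35.2 to 38.1 and 30.4 to 32.9 TPM). Both were measured in the same libraries, so these ranges do not show that the genotypes differed on this point. The other neighbours in that order were separated in both genotypes. In all 5 transcripts both mutant libraries lay below both w1118 libraries, which held for 35.9% of all listed transcripts. In the authors' deposited table the p-values were 0.0136 for LysD, 0.0119 and 0.00117 for the LysB transcripts FBtr0072628 and FBtr0336738, 0.00212 for LysE and 0.0213 for LysS.

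The replicates of a genotype differed by less than the genotypes did. In w1118, replicate 2 stood above replicate 1 in all 5 transcripts, by 1.07 times for LysD and 1.65 times for LysS. In the mutant, replicate 1 stood above replicate 2 in LysD (1.38 times), the shorter LysB transcript (1.42 times) and LysS (1.8 times). LysE and the longer LysB transcript went the other way, with replicate 2 at 1.08 times replicate 1 in each. Between the mutant libraries these 2 low transcripts thus differed in the same direction as each other and in the opposite direction to the 2 abundant ones. The ratio of the longer LysB transcript to LysE was 86.4% and 86.3% in the mutant libraries and 96.1% and 88.8% in w1118.

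The 5 transcripts were summed, which sets aside how reads were divided between these copies only. Any reads assigned to lysozyme genes outside the list are missing from the sum. It came to 14351 and 10352 TPM in the mutant samples and to 37120 and 41000.2 TPM in those of w1118. The sum was 3.16-fold lower in the mutant, at 12352 ± 2827 against 39060.2 ± 2744 TPM (SD, n = 2). The groups did not overlap, and the exact two-sided permutation p was 0.33, the smallest that 2 samples against 2 can give. The log2 ratio of the summed means was -1.66, and -2.36 with median-ratio scaling. The factors of that scaling came from the listed transcripts alone, which were selected for differing and of which 58.8% stood higher in the mutant. The larger fall carries that lean and is not a separate estimate. With each library's total taken as 1000000 TPM, which could not be checked on a partial list, lysozymes made up 3.71% and 4.1% of transcripts in w1118 and 1.44% and 1.04% in the mutant. That is 1 transcript in 26.9 and 24.4 in w1118, and 1 in 69.7 and 96.6 in the mutant. Over all listed transcripts, group means that stood lower in the mutant were lower by 136049 TPM together, and those that stood higher were higher by 53754 TPM together. The lysozymes made up 19.6% of the first sum, LysD alone 16.1%.

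Within the family, LysD held 84.4% and 81.9% of the lysozyme sum in w1118 and 85.8% and 85.9% in the mutant. The shorter LysB transcript held 15% and 17.4% in w1118 and 13.8% and 13.4% in the mutant. LysB per LysD was 17.7% and 21.2% in w1118 and 16% and 15.6% in the mutant. These groups did not overlap, with an exact two-sided permutation p of 0.33, the smallest possible. LysE per LysD overlapped (0.375% and 0.436% in w1118, 0.286% and 0.428% in the mutant, exact permutation p = 0.67). Both ratios depend on how reads were divided between near-identical copies, so a difference within the family cannot be read from them. These proportions, apart from that of LysS, were chosen after the values were seen.

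LysS was also lower in proportion to its relatives. Per 1000000 TPM of LysB, LysD and LysE together, LysS had 144 and 215 TPM in the w1118 libraries and 72.4 and 55.8 TPM in the mutant libraries. The log2 ratio of LysS to that sum was -13.94 ± 0.27 in the mutant and -12.47 ± 0.41 in w1118 (SD, n = 2), a difference of -1.47. The groups did not overlap, and the exact two-sided permutation p was again 0.33, the smallest possible. In the mutant the ratio rests on LysS at 1.04 and 0.577 TPM, in libraries of unknown depth.

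**Figure D2:**
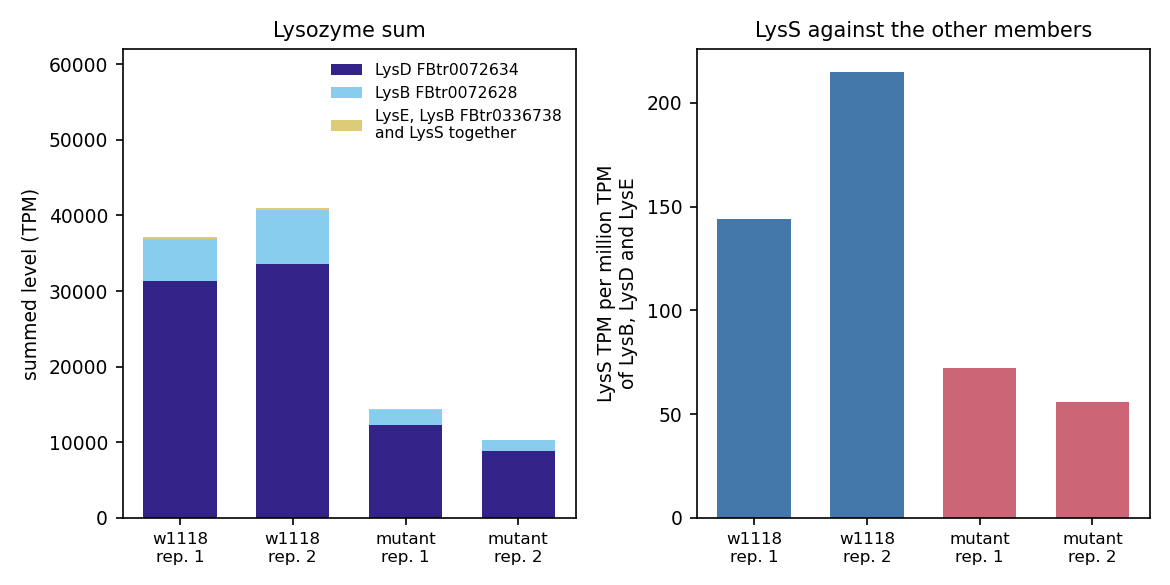
Left, summed level of the lysozyme transcripts in TPM in each library, divided into LysD, the shorter LysB transcript and the other 3 together; right, LysS in TPM per 1000000 TPM of LysB, LysD and LysE, with 1 bar per library and n = 2 per genotype. The sum is 37120 and 41000.2 TPM in w1118 and 14351 and 10352 TPM in the mutant, nearly all of it LysD and LysB, and the LysS proportion is lower in both mutant libraries.

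The 4 genes share a location and a gene structure. In the BDGP6.54 annotation (Ensembl release 115, which may not be the authors' annotation) they lie within 20.9 kb on chromosome arm 3L. LysB spans 3L, 1207371 to 1207981 on the plus strand, LysD 1210717 to 1211196 on the minus strand, LysE 1212827 to 1213406 on the plus strand and LysS 1227747 to 1228238 on the plus strand. Each transcript is a single exon of 480 to 611 bases with a coding sequence of 140 codons; 9.2% of annotated protein-coding transcripts have a single exon. The untranslated ends differ: LysE is annotated with 125 bases of 5′ UTR against 19 in LysD, 23 in LysB and 25 in LysS. LysD also overlaps the end of LysC, annotated as a pseudogene on the opposite strand, by 10 bases.

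All 4 lysozyme genes are nested inside mwh (multiple wing hairs), a gene known for limiting the number of hairs that a wing cell makes. They lie in intron 3 of the 2 long mwh transcripts, and LysD, LysE and LysS lie in intron 1 of a shorter mwh transcript (FBtr0331392). The shorter transcript was listed, with 0.945 and 2.11 TPM in mutant intestines and 27.9 and 27.7 TPM in w1118 intestines. It fell 18.2-fold (13.2- to 29.4-fold with 1 library left out), with a log2 change of -3.55 ± 0.38 (SE, n = 2 per group; limma annotation-wide adjusted p = 1.29e-05). LysB, LysE and LysS share its strand and LysD does not. In w1118 its level stood above that of LysS and far below those of LysD and LysB. The labels do not say whether reads were counted by strand. The part of mwh RNA in the LysS value, and so in its ratio to the other lysozymes, was not tested.

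The nearest other listed genes on either side of the lysozymes, meep and CG33965, moved the other way. Within 10 kb of the lysozyme cluster 9 genes other than lysozymes are annotated, of which 3 were listed, and these were looked up after their values had been seen. The gene meep, upstream of LysB and itself inside intron 1 of the 2 long mwh transcripts, had 31.1 and 22.3 TPM in mutant intestines and 3.58 and 3.73 TPM in w1118 intestines. It rose with a log2 change of 2.56 ± 0.36 (limma annotation-wide adjusted p = 0.000241). CG33965, downstream of LysS, had 115 and 77.3 TPM in mutant intestines and 27.4 and 27.5 TPM in w1118 intestines, and rose with a log2 change of 1.75 ± 0.28 (annotation-wide adjusted p = 0.00111). LysP, annotated between LysE and LysS, and LysX, outside the cluster, were not listed, and nothing can be said of their levels.

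**Figure D3:**
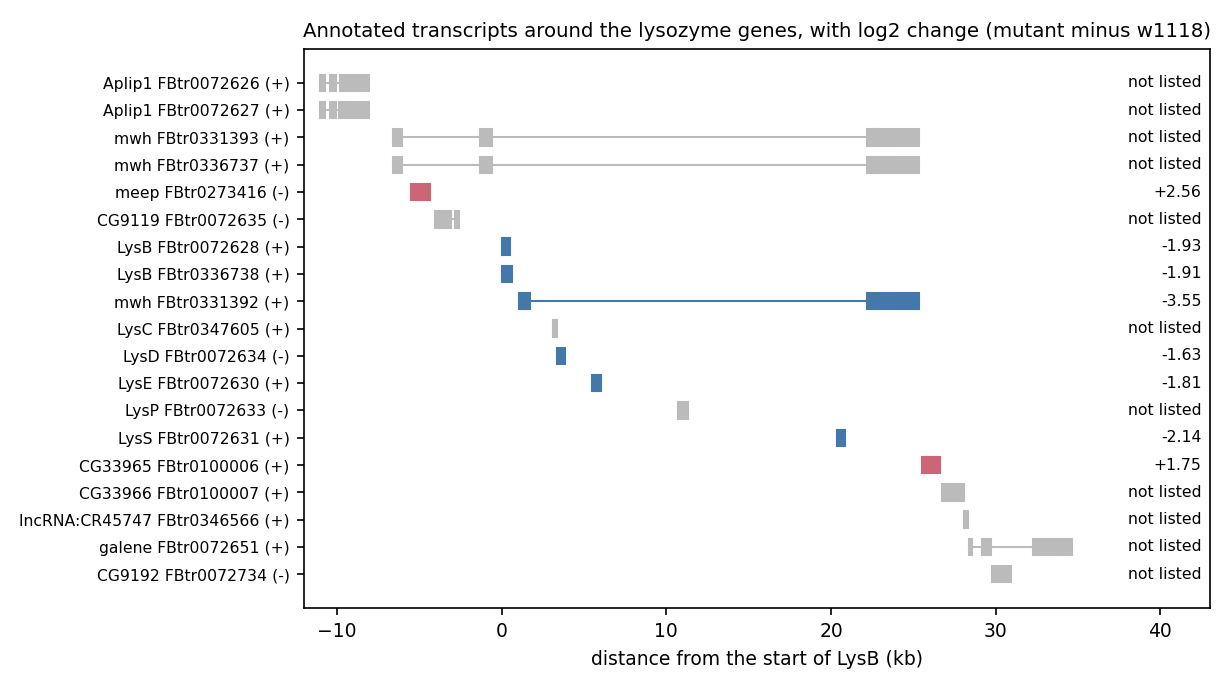
Annotated transcripts within 10 kb of the lysozyme genes, drawn to scale by distance from the start of LysB in kb, with boxes for exons, lines for introns and the strand in brackets; blue marks listed transcripts lower in the mutant, red those higher and grey those not listed, with the log2 change at the right. The lysozymes and the listed mwh transcript, whose first intron holds LysD, LysE and LysS but not LysB, are blue, from -1.63 to -3.55, and meep and CG33965 are red, at 2.56 and 1.75.

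Among other genes linked to bacterial cell walls, those of the peptidoglycan recognition protein family went both ways. None of the 16 other lysozyme genes looked for, of which 14 matched the annotation, was listed. Of 12 peptidoglycan recognition protein genes, a family in which some members bind or cut peptidoglycan, 5 were listed with 6 transcripts. Of these transcripts 2 fell and 3 rose, where 8.69% of all listed transcripts fell and 22.0% rose. Both transcripts that fell belong to PGRP-SC1b, an amidase that cuts peptidoglycan in the gut. Its transcript FBtr0088708 had 551 and 519.6 TPM in mutant intestines and 3659 and 3827 TPM in w1118 intestines, a log2 change of -2.80 ± 0.24 (limma annotation-wide adjusted p = 1.13e-06). Its transcript FBtr0339336 fell by 2.17 on the log2 scale. PGRP-SB1, a secreted amidase, rose by 3.70 on the log2 scale, from 0.728 and 2.6 TPM in the w1118 libraries to 19.1 and 51.4 TPM in those of the mutant. PGRP-SA, a secreted receptor of the Toll pathway, rose by 1.65 and PGRP-LC, the membrane receptor of the IMD pathway, by 1.5. PGRP-LA had means of 10.9 against 3.15 TPM, mutant first (annotation-wide adjusted p = 0.0631).

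Lysozymes stood among the most abundant transcripts of the w1118 list, together with the digestive proteases. Of the 10 listed transcripts with the highest w1118 mean, LysD and the shorter LysB transcript made 2. Jon65Aiii, Jon99Fi, Jon99Fii and Jon65Ai, serine proteases of the Jonah family, fell 2.4-, 12.1-, 6.2- and 2.09-fold. The related Jon99Cii and yip7 stood 2.2- and 1.87-fold lower (annotation-wide adjusted p = 0.0616 and 0.222). CG12057 fell 4.26-fold and CG11911, of the trypsin-like serine protease family, 3.86-fold. Taken by the mean over all 4 libraries, a choice made after the data were examined, 26 other listed transcripts reached 1000 TPM, of which 22 stood lower in the mutant and 4 higher, in a list selected for differing. Their median was 2.39-fold lower, and 11 of the 26 were lower by more than LysD and LysB, at 3.06- and 3.77-fold.

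**Figure D4:**
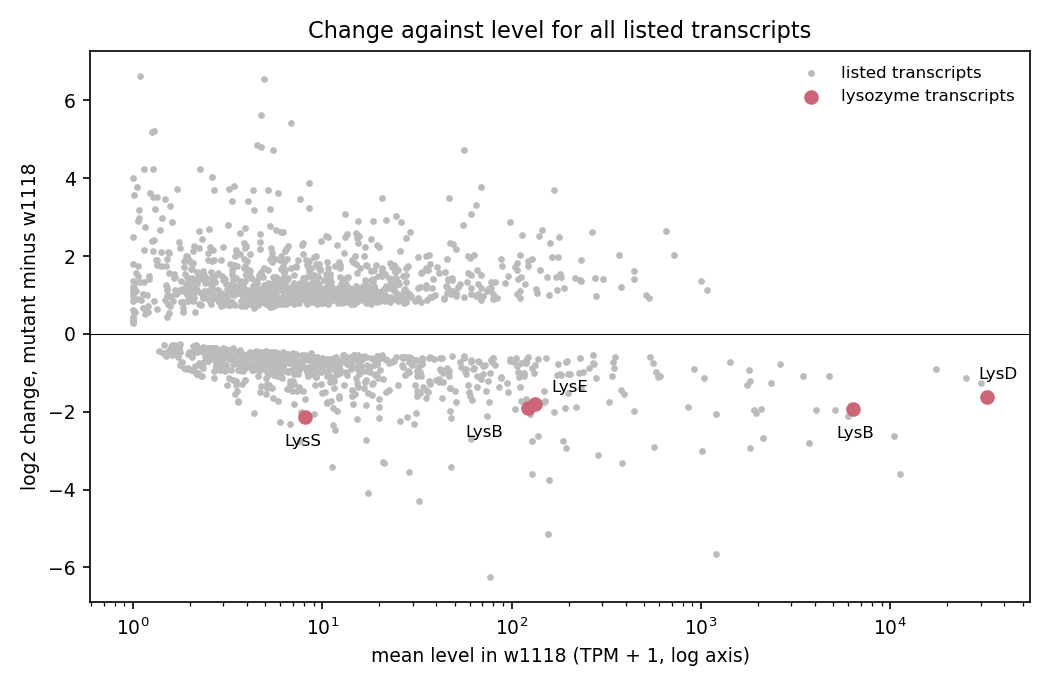
Log2 change on log2(TPM + 1), mutant minus w1118, against mean level in w1118 in TPM + 1 on a log axis, with 1 point for each of 1761 listed transcripts and the 5 lysozyme transcripts in red. The lysozyme points lie between -1.63 and -2.14 at w1118 means from 7.08 to 32458 TPM, and the empty band around 0 is left by the authors' selection on p.

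Profiles over the 4 libraries were compared by Euclidean distance of log2(TPM + 1), centred on each transcript's mean, to the mean profile of the 5 lysozyme transcripts. The 6 closest of 883 other listed transcripts whose mean reached 10 TPM were CG11911 (distance 0.311), CG1946 (0.321), CG7631 (0.351), CG6296 (0.394), CG31041 (0.395) and CG8664 (0.395). The lysozyme transcripts themselves stood at 0.207 to 0.351 from that mean. That mean was made from them, so their distances are small by construction and give no yardstick for the other transcripts. LysS, below 10 TPM in every library, would not have passed the filter set on the others. CG7631 encodes a metalloprotease of the astacin family and CG6296 a member of the lipase family. CG7631 had 61.4 and 40.8 TPM in mutant intestines and 192 and 188 TPM in w1118 intestines. CG6296 had 31.6 and 33.8 TPM in mutant intestines and 114 and 108 TPM in w1118 intestines. In CG7631, as in LysD, mutant replicate 1 lay above mutant replicate 2, while in CG6296, as in LysE, replicate 2 lay slightly above replicate 1. With 4 libraries in 2 groups, likeness mostly means a similar size of fall.

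**Figure D5:**
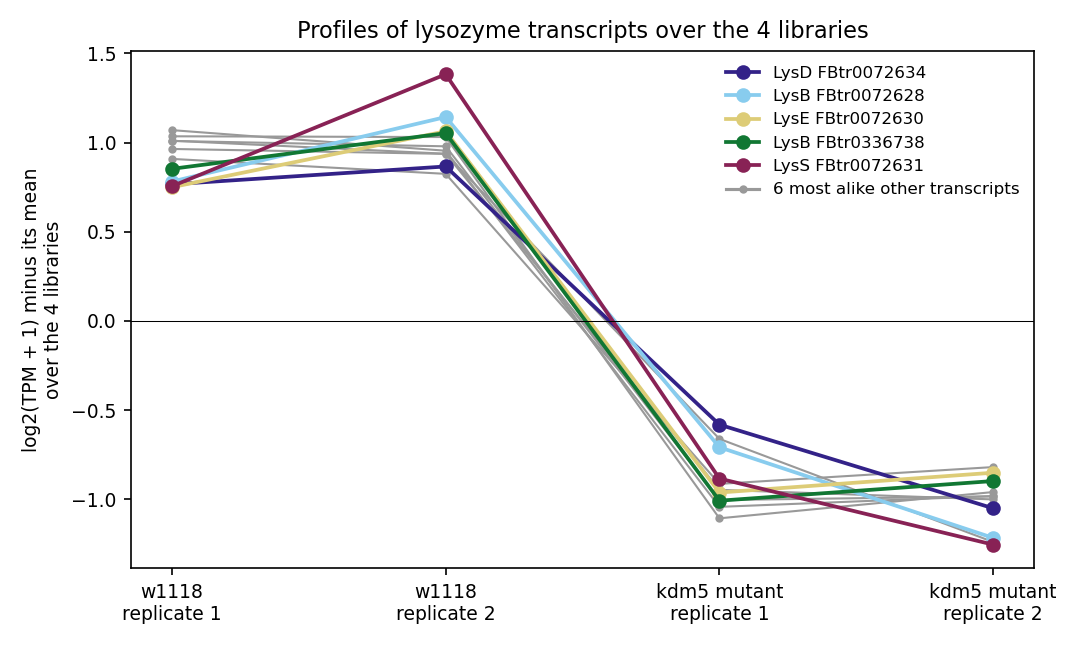
Log2(TPM + 1) of each lysozyme transcript minus its mean over the 4 libraries (coloured lines), beside the 6 most alike other listed transcripts (grey), with 1 point per library. LysS spans the widest range and LysD the narrowest of the 5, and in the mutant LysE and the longer LysB transcript are slightly higher in replicate 2, the other 3 in replicate 1.

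Markers of cell types were read in the same libraries. Enterocytes, the absorptive cells that secrete digestive enzymes, had 5 of 16 marker genes listed, each with 1 transcript, and 4 fell. Their summed level was 58036 and 60495 TPM in w1118 and 26303 and 23078 TPM in the mutant. The enterocyte sum was 2.4-fold lower in the mutant and the lysozyme sum 3.16-fold lower. Lysozyme TPM per TPM of these markers was 0.64 and 0.678 in w1118 and 0.546 and 0.449 in the mutant, ratios that rest mostly on the abundant Jon65Aiii and Jon99Cii. One by one, Jon65Aiii and Jon99Cii stood 2.4- and 2.2-fold lower in the mutant, less than the lysozyme sum, while Jon99Ciii (3.89-fold), deltaTry (3.85-fold) and gammaTry (32.1-fold, 17.5- to 193-fold with 1 library left out) stood further down than it. The median log2 change of the 5 markers was -1.88, and that of the lysozymes -1.91. The 5 markers were all Jonah or Try genes, and the other marker genes were not listed. Both medians are of transcripts selected for differing, so they do not measure the number of enterocytes. The part of a change in enterocytes in the lysozyme fall was not tested.

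Markers of other cells moved on a smaller scale of TPM. Enteroendocrine markers, with 5 of 10 genes listed, summed to 175 to 189 TPM in w1118 and 95.8 to 98.2 TPM in the mutant. Of their 8 transcripts, limma called 0 annotation-wide, 4 within the list and 5 at an unadjusted p under 0.05. Malpighian tubule markers, with 5 of 12 genes listed, summed to 226 to 272 and 239 to 263 TPM, with members that moved in opposite directions. Of their 8 transcripts, Oatp58Db and ZnT35C rose by 2.21 and 1.19 on the log2 scale, and 1 of Irk1 (FBtr0336474) fell by 1.74. Fat body markers, with 3 of 14 genes listed, summed to 16.9 to 20.5 and 44.9 to 63.1 TPM, and also moved in opposite directions. Of their 3 transcripts, that of Tsf1 rose and that of Miox stood higher. FASN1 stood lower, at 0.00308 and 0.000769 TPM in the mutant and 0.176 and 1.43 TPM in w1118. Haemocyte markers, with 2 of 8 genes listed, summed to 0.557 to 0.957 and 1.2 to 1.32 TPM, but the 2 moved in opposite directions. The srp transcript stood higher in the mutant and was at 0 in w1118 replicate 1. Hml stood lower, at 0.169 and 0.393 TPM in the mutant and 0.957 and 0.557 TPM in w1118. The progenitor marker esg (1 of 8 genes) was at 1.24 to 2.02 and 0.48 to 0.873 TPM. Markers of copper cells, the acid-secreting cells of the middle midgut, had 2 of 6 genes listed and summed to 9.07 to 15.8 and 4.72 to 9.72 TPM, ranges that overlapped. None of 15 ovary genes and none of 6 genes of salivary gland, proventriculus and hindgut was listed.

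Of 24 genes for transcription factors that act in the gut, 7 were listed with 9 transcripts, of which 1 fell and 1 rose (8.69% and 22.0% over the list). The transcript of sug (sugarbabe), a zinc finger factor of the response to dietary sugar, had 43.7 and 59.4 TPM in mutant intestines and 185 and 108 TPM in w1118 intestines, a log2 change of -1.46 ± 0.29 (limma annotation-wide adjusted p = 0.00809). The srp transcript FBtr0335424, of a GATA factor, was at 1.03 and 0.925 TPM in the mutant and near 0 in w1118, and rose by 0.98 on the log2 scale (annotation-wide adjusted p = 0.039). GATAe, the GATA factor that maintains gut identity and is known in flies to act on many digestive enzyme genes, had 11.6 and 11.9 TPM in mutant intestines and 23.6 and 13.4 TPM in w1118 intestines. Its groups did not overlap, but its log2 change of -0.57 ± 0.35 did not pass the test (limma adjusted p = 0.131 over the listed transcripts). The homeobox factor nub had means of 1.65 against 0.526 TPM, mutant first (annotation-wide adjusted p = 0.512), and lab, esg and 3 transcripts of Ptx1 stood lower without passing either test, with log2 changes from -0.66 to -0.52.

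With any 1 library left out, all 5 lysozyme transcripts stayed lower in the mutant, with a median log2 change from -2.01 to -1.74. Each had been listed for differing on this contrast with every library included, so that outcome was largely fixed in advance. The annotation-wide calls numbered 0 of 5 without mutant replicate 1 and 0 of 5 without mutant replicate 2, where all 5 had an unadjusted limma p under 0.05. They numbered 4 of 5 without w1118 replicate 1 and 4 of 5 without w1118 replicate 2, LysD being lost each time. The deposited list leans to higher values in the mutant: dividing each library by the median ratio of its listed transcripts removed a shift of 0.75 on the log2 scale. On that scale the log2 changes of the 5 ran from -2.68 to -2.38, all past the test over the listed transcripts and 2 of 5 past the annotation-wide one.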

How the data were processed

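Per the file headers, the authors deposited transcript identifiers, p-values and the TPM of 4 libraries in 1 table. Cufflinks and DESeq appear in the submitters' processing notes without role or version. Aligner, build, strand setting and any adjustment of the deposited p-value remained not given in the sources used here. Of 1761 identifiers, 1741 matched the BDGP6.54 annotation of Ensembl release 115. In R 4.3.3, limma 3.58.1 with a prior variance that depends on the mean compared mutant with w1118 on log2(TPM + 1) over all listed transcripts, with neither replicate block nor filter. Benjamini-Hochberg adjustment was over the 1761 listed transcripts and, annotation-wide, over 35694. The fit was run on simulated data without selection on p, which cannot give its error rate on this selected list. Sums and ratios were tested by exact permutation. Named were all listed transcripts of the members, other lysozymes, peptidoglycan recognition proteins and gut transcription factors, Kdm5, the 6 most alike and the 10 most abundant transcripts. Members and lists were chosen with earlier results of these data known. Alternatives were the pseudocount, a filter, the prior, scaling, summing per gene, a block and leaving out libraries. The planned sequence descriptions were not made.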

Additional observations from a re-analysis of the deposited data

How the results depend on the processing

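All 5 lysozyme transcripts stayed lower in the mutant in each of 14 alternatives (69 values, log2 changes from -2.99 to -0.65). Each transcript had been listed for passing the authors' test of the same contrast in these samples. That outcome was therefore largely fixed in advance. The median log2 change of the 5 was -1.91; it was -1.63 with a pseudocount of 10 and -2.61 with median-ratio scaling, and ran from -2.01 to -1.74 with 1 library left out. The lone sample of a genotype was then assumed to vary like the other genotype. The log2 ratio of summed lysozyme TPM was -1.66, and -2.36 with median-ratio scaling; it ran from -1.92 to -1.44 and the difference in the LysS ratio from -1.76 to -1.18 with 1 library left out. No lysozyme transcripts had identical values. With replicate number as a block (a number shared by label only; the correlation of deviations was -0.19) 5 of 5 lysozyme transcripts were called and the log2 change of LysD was -1.63; with crossed numbers, added after seeing the data, 5 of 5 were called. Of all listed transcripts 412 were called lower; the count was 714 with median-ratio scaling, 269 with the block, 631 with it crossed, 153 annotation-wide, 225 and 255 without mutant replicates 1 and 2 and 154 without w1118 replicate 1. The cause was not tested. TPM keeps no depth, so counting error is unknown, and 2 libraries per genotype limit the precision.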

Other observations

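Like the lysozymes, many abundant gut enzymes are encoded by genes without introns, so listed transcripts were divided by exon number after the data were examined. Without the lysozymes, 228 listed transcripts had a single exon and 22.8% of these stood lower in the mutant, against 43.8% of the 1508 with several exons. Of the 26 whose mean over the 4 libraries reached 1000 TPM, 13 of 14 with a single exon and 9 of 12 with several exons stood lower. The 4 that stood higher were Mal-A1, a maltase, at 4070 and 3083 TPM in the mutant and 332 and 965 TPM in w1118, RpL36, a ribosomal protein of the large subunit, CG13321 and CG15126, each past limma's annotation-wide test (adjusted p = 0.000162, 0.018, 0.00514 and 6.35e-05).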
